A study of Mus musculus with 6 samples.

Results

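The families of secreted and membrane-bound cues that steer growing axons, and their receptors, were followed through chemically induced skin carcinogenesis in the mouse. Members were chosen by gene symbol: the semaphorins (Sema), plexins (Plxn), neuropilins (Nrp1, Nrp2), Slits (Slit1 to Slit3), Robos (Robo1 to Robo4), ephrins (Efna, Efnb) and Eph receptors (Epha, Ephb). The symbols matched 60 of the 23726 gene models of the deposited table. They comprised 31 ligands (7 secreted class 3 semaphorins, 12 transmembrane semaphorins, the GPI-anchored Sema7a, 3 Slits, 5 A ephrins and 3 B ephrins) and 29 receptors (2 neuropilins, 9 plexins, 4 Robos, 9 EphA and 5 EphB receptors).

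RNA was sequenced from 6 libraries. The biopsies were 1 whole biopsy of healthy skin, 2 distinct papillomas and 1 tumour, the papillomas and the tumour induced by painting the skin with DMBA, which mutates DNA, and TPA, a tumour promoter. The other libraries were mSCC-20 and mSCC-38, skin cells isolated from DMBA/TPA tumours, which the submitters call non-tumorigenic and highly tumorigenic. The labels name no strain, age, sex or number of mice, nor whether mSCC-20 and mSCC-38 came from 1 tumour. The p-values below rest on the spread between the 2 papillomas and on the spread across genes. Neither need equal the spread between mice.

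Semaphorins signal through plexins, and most class 3 semaphorins need a neuropilin as co-receptor. Slits bind Robos, and ephrins bind Eph receptor tyrosine kinases on a neighbouring cell, where both partners can signal. Outside the nervous system the same proteins act in blood vessels, in epithelia and in the adhesion and spacing of cells, and skin epithelium, vessels and nerves all express some of them.

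Total counts per library ranged from 25140489 (papilloma 1) to 42992597 (tumour), and RNA integrity numbers ran from 7.5 (skin) to 9.6 (mSCC-38). Levels are in CPM, counts per 1000000 counts after TMM scaling, a correction for differing RNA composition. Where a count was 0, up to 3 counts remain possible, equal to between 0.0604 CPM (skin) and 0.141 CPM (papilloma 1). Papilloma 2 held hair follicle RNA: 4 hair root sheath genes (Krt71, Krt25, Krt27 and Tchh) stood there at 26.0% to 34.4% of their skin level, against 0.0560% to 0.329% in papilloma 1. In bulk samples, fewer cells of a type and less RNA per cell cannot be told apart.

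Most members were measurable in tissue and fewer in the isolated cells. At least 1 CPM was reached by 52 members in skin, 53 and 52 in papilloma 1 and papilloma 2, and 52 in the tumour. In mSCC-20 the number was 36, and in mSCC-38 it was 44. Epha6 and Epha10 had no count in any library, and Epha5 had at most 0.0706 CPM (papilloma 2). Per kilobase of gene model, the sum over all 60 members lay between 527 CPM per kb in mSCC-20 and 822 CPM per kb in the tumour. The receptor sum was 354 CPM per kb in skin, 382 and 395 in the papillomas and 479.6 in the tumour. The ligand sum was 423 CPM per kb in skin, 378 and 355 in the papillomas and 342 in the tumour. Thus the summed ligand level was above the summed receptor level in skin, near it in papilloma 1, and below it in papilloma 2 and the tumour.

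**Figure D1:**
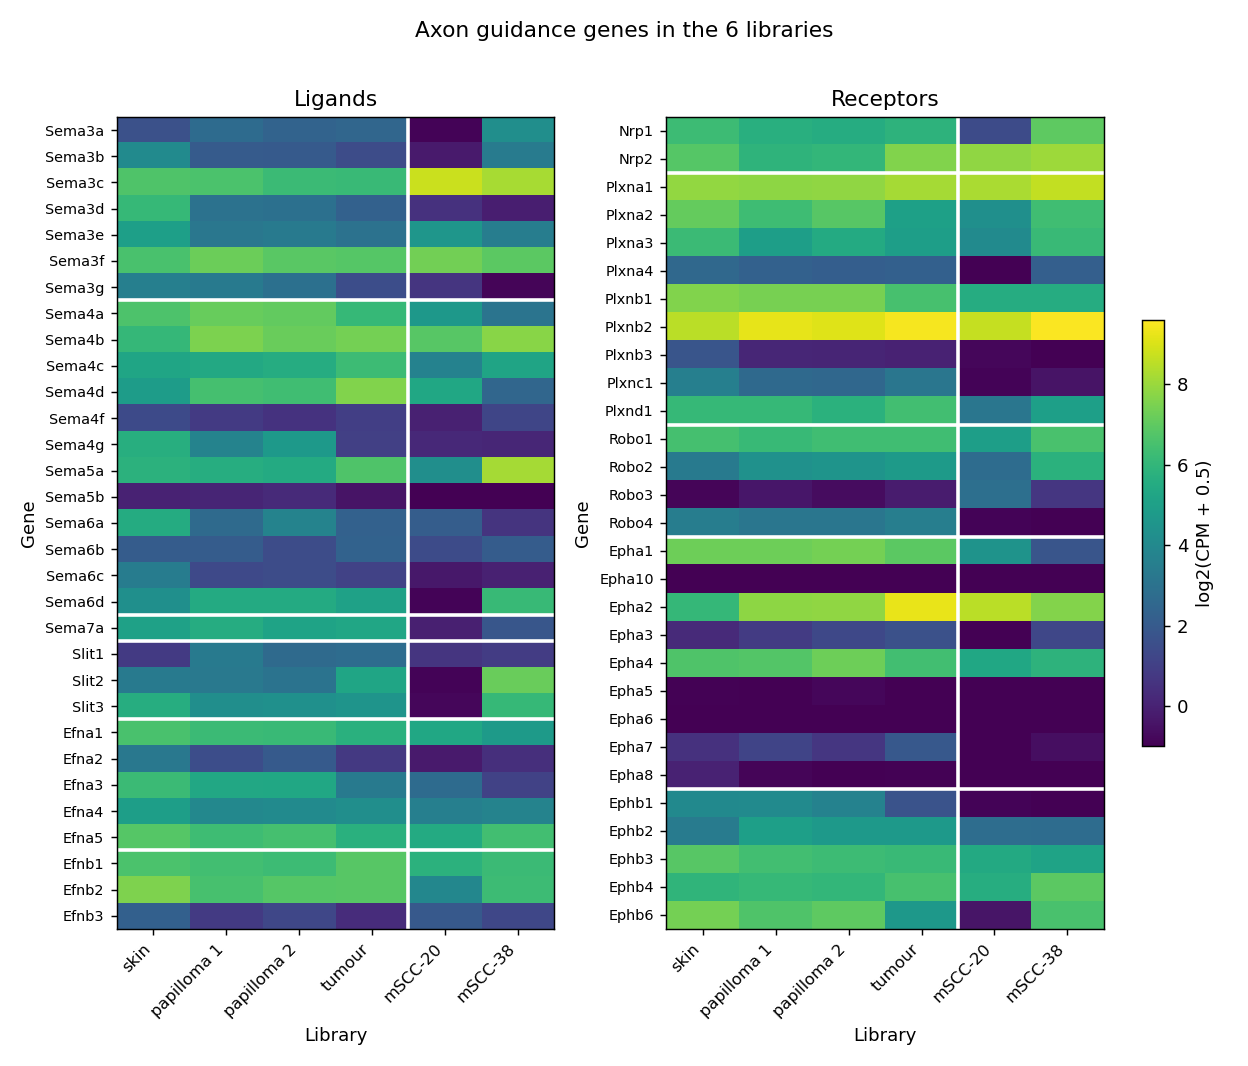
Level of each of the 60 genes in each library, as colour on the log2(CPM + 0.5) scale, ligands on the left and receptors on the right, with white lines between classes and between the 4 biopsies and the isolated cells. Epha2 brightens from skin (65.5 CPM) to tumour (608 CPM), and Slit2, Slit3, Sema6d and Nrp1 are dark in mSCC-20 and bright in mSCC-38.

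In the biopsies, papilloma against skin and tumour against papilloma were tested with edgeR's quasi-likelihood test over all 16302 genes that passed the filter on low counts. Of the 60 members, 57 passed that filter (Epha5, Epha6 and Epha10 did not). From skin to papilloma 7 members rose, 12.3% of those tested, where 12% of all genes tested rose. In the same comparison 15 members fell, 26.3% of those tested, against a background of 14.3%. At an unadjusted p under 0.05 the numbers were 10 higher and 20 lower of the 57 members, against 3221 and 3867 of all 16302 genes. From papilloma to tumour 6 members rose (10.5%, background 12.1%) and 9 fell (15.8%, background 10.6%). There the numbers at an unadjusted p under 0.05 were 8 and 13 of the 57 members, against 3287 and 3026 of all 16302 genes. Both comparisons use the same papillomas, so they are not independent of each other. In what follows, a rise or fall written with ± is the edgeR log2 fold change and its SE.

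From skin to papilloma, 10 of 31 ligands and 5 of 26 tested receptors fell, and 4 ligands and 3 receptors rose. On log2(CPM + 0.5), the median ratio of papilloma to skin was -0.29 over the 54 members with at least 1 CPM on either side, and -0.03 over all 14567 such genes. For tumour against papilloma the medians were -0.10 (53 members) and 0.02 (14173 genes). Scaling by total counts in place of TMM moved the median of all genes to -0.44 from skin to papilloma and to 0.14 from papilloma to tumour, and that of the members to -0.71 and 0.04. In both cases the members' median stayed below that of all genes. With at least 10 CPM and TMM, the medians were nearly equal for tumour against papilloma, at 0.030 (members) and 0.036 (all genes). For papilloma against skin they were then -0.29 and 0.07. A change of at least 4-fold on log2(CPM + 0.5) was reached by 1 member upward (Slit1, background 3.26%) and 4 downward (background 5.09%) from skin to papilloma. From papilloma to tumour it was reached by 1 member upward (Slit2, background 2.73%) and 4 downward (background 5.07%).

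Other tissue parts moved in these comparisons as well. In papilloma against skin, 6 of 10 Schwann cell markers, 5 of 6 skeletal muscle markers, 3 of 5 adipocyte markers and 2 of 8 hair follicle markers fell, and 5 of 10 keratinocyte markers rose. By size alone, 7 of 8 hair follicle markers and 4 of 5 melanocyte markers were at least 4-fold lower in the papilloma mean than in skin. Hair follicle markers summed to 16689 CPM in skin, 62.4 and 4972 in the papillomas and 33.3 in the tumour. Melanocyte markers summed to 426 CPM in skin, 9.14 and 148 in the papillomas and 1.99 in the tumour. The adipocyte sum went the other way from its 3 fallen markers, at 525 CPM in skin, 1260 and 634 in the papillomas and 763 in the tumour. Most of each sum was Fabp4, which was not called, with 349 CPM in skin, 1249 and 603 in the papillomas and 746 in the tumour. Summed Schwann cell markers stood at 303 CPM in skin, 238 and 197 in the papillomas and 1052 in the tumour. Nearly all of the tumour value came from Mal (963 CPM), which epithelia also express. In tumour against papilloma, 4 of 8 leukocyte markers and 4 of 8 mesenchymal markers rose. By size alone, all 8 hair follicle markers and all 5 melanocyte markers were at least 4-fold lower in the tumour than in the papilloma mean. Endothelial markers summed to 273 CPM in skin, 285 and 240 in the papillomas and 245 in the tumour. The part of these tissue shares in the changes below was not tested.

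**Figure D2:**
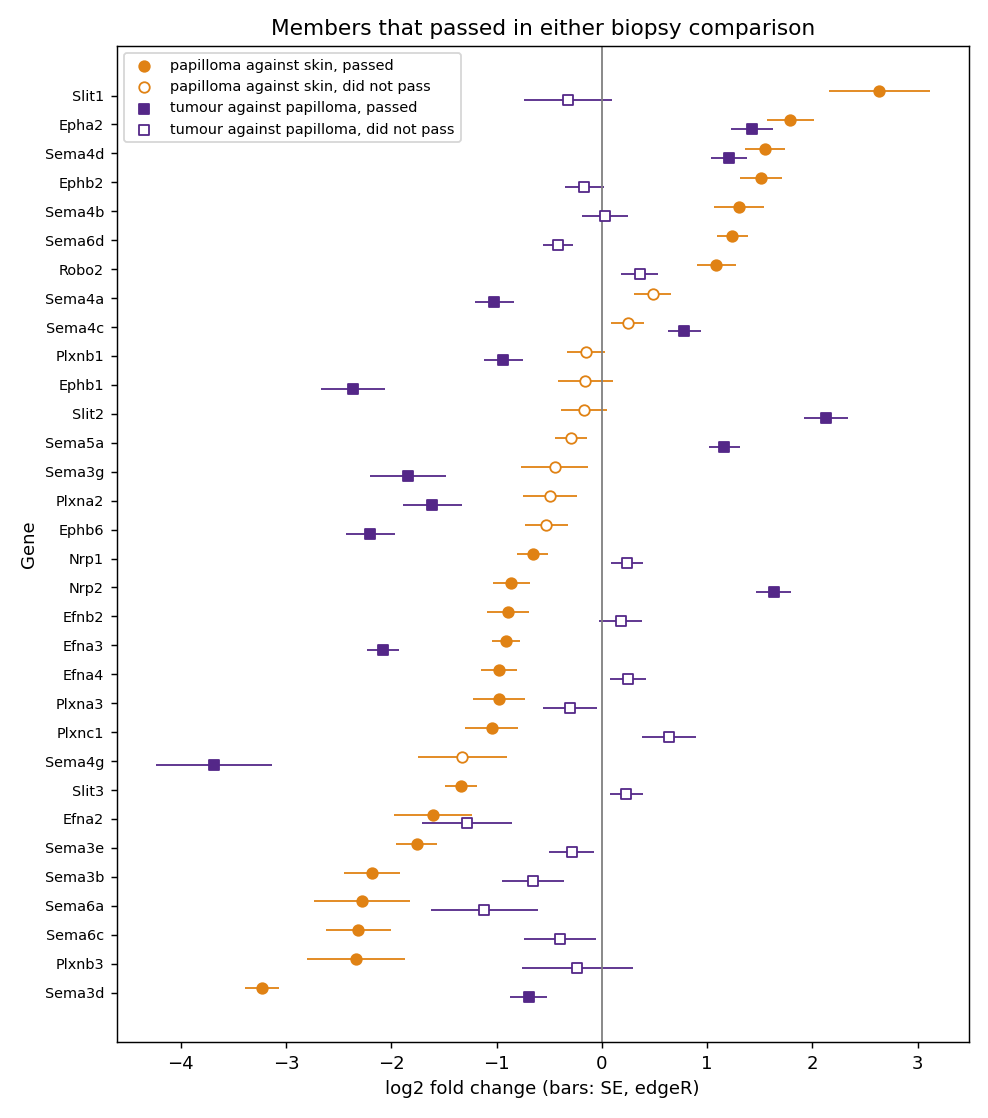
edgeR log2 fold change of each member that passed in either biopsy comparison (x axis, bars are the SE), papilloma against skin as circles and tumour against papilloma as squares, filled where the adjusted p was under 0.05. Epha2 and Sema4d lie to the right in both comparisons, Efna3 and Sema3d to the left in both, and Nrp2 lies on opposite sides.

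Among the class 3 semaphorins, secreted ligands that act through neuropilins and plexins, 3 of 7 fell from skin to papilloma and none rose. Sema3d had 68.0 CPM in skin, 7.41 and 7.06 in the papillomas, 4.46 in the tumour, 0.909 in mSCC-20 and 0.422 in mSCC-38. Skin stood far above all other libraries. The log2 fold change from skin to papilloma was -3.23 ± 0.16 (SE, edgeR adjusted p = 0.00363), the deepest fall among the members that passed in that comparison. From papilloma to tumour it was -0.70 ± 0.17 (edgeR adjusted p = 0.0497), a call lost with DESeq2 (adjusted p = 0.134), with total-count scaling (edgeR adjusted p = 0.123) and in a fit of all 6 libraries (edgeR adjusted p = 0.0749). In the tumour Sema3d was 15.2-fold below skin (95% interval 13.1 to 17.7, exact Clopper-Pearson, which like all intervals below covers counting error only).

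Sema3e, whose receptor is plexin-D1 and which needs no neuropilin, had 30.7 CPM in skin, 8.63 and 9.50 in the papillomas, 7.43 in the tumour, 23.5 in mSCC-20 and 10.8 in mSCC-38. Its log2 fold change from skin to papilloma was -1.76 ± 0.20 (edgeR adjusted p = 0.00950). Sema3b, encoded near Sema3f, had 16.4 CPM in skin, 3.66 and 3.53 in the papillomas, 2.28 in the tumour, 0.357 in mSCC-20 and 10.1 in mSCC-38. It fell by 2.19 ± 0.27 from skin to papilloma (edgeR adjusted p = 0.0108), and both papillomas and the tumour lay below skin and mSCC-38. Sema3g had 11.5 CPM in skin, 9.89 and 6.99 in the papillomas and 2.35 in the tumour, and in the isolated cells 1.07 (mSCC-20) and 0.0603 (mSCC-38). Later, from papilloma to tumour, it fell by 1.84 ± 0.36 (edgeR adjusted p = 0.0271).

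The class 3 members with the highest level per length passed in neither comparison. Sema3f, a ligand of neuropilin-2, had 27.6 CPM per kb in skin, 43.8 and 34.5 in the papillomas and 33.0 in the tumour, the highest class 3 value in each of these biopsies, and 47.3 and 36.1 in mSCC-20 and mSCC-38. In tissue Sema3c stood lower, at 14.8 to 20.9 CPM per kb, but in the isolated cells it led the class, at 87.4 CPM per kb in mSCC-20 and 59.5 in mSCC-38. For both genes the edgeR adjusted p lay between 0.151 and 0.526. Sema3a, the classical repellent of sensory axons, was low in tissue, at 2.55 CPM in skin, 6.0 and 4.66 in the papillomas and 5.22 in the tumour.

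The transmembrane semaphorins went in both directions, with 3 of 12 higher and 2 lower from skin to papilloma, and again 3 higher and 2 lower from papilloma to tumour. Sema4d, the ligand of plexin-B1 also known as CD100 on lymphocytes, had 28.7 CPM in skin, 87.2 and 80.6 in the papillomas, 193 in the tumour, 39.0 in mSCC-20 and 5.10 in mSCC-38. The biopsy values stepped upward from skin through both papillomas to the tumour. Sema4d rose by 1.55 ± 0.19 from skin to papilloma (edgeR adjusted p = 0.0110) and by 1.20 ± 0.17 from papilloma to tumour (edgeR adjusted p = 0.0121). The tumour was 6.74-fold above skin (95% interval 6.37 to 7.14). Leukocyte markers summed to 320.1 CPM in skin, 243 and 252 in the papillomas, 479.9 in the tumour, 5.75 in mSCC-20 and 13.6 in mSCC-38, and their part in the Sema4d values was not tested. Its receptor gene Plxnb1 took the opposite course in the last step, with 191 CPM in skin, 172 in each papilloma and 90.1 in the tumour, where it fell by 0.94 ± 0.19 from papilloma (edgeR adjusted p = 0.0291). With total-count scaling the Plxnb1 value was -0.81 (edgeR adjusted p = 0.0567). In mSCC-20 and mSCC-38 Plxnb1 had 46.1 and 47.1 CPM.

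Sema4b had 66.4 CPM in skin, 183 and 144 in the papillomas, 167 in the tumour, 114 in mSCC-20 and 210.4 in mSCC-38. It rose from skin to papilloma by 1.30 ± 0.24 (edgeR adjusted p = 0.0224), and the tumour lay between the papillomas. Sema6d, a ligand of plexin-A1, had 18.7 CPM in skin, 44.0 and 44.3 in the papillomas and 33.0 in the tumour, a rise of 1.24 ± 0.15 from skin to papilloma (edgeR adjusted p = 0.0106). Sema5a, which carries thrombospondin repeats and binds proteoglycans, had 56.0 CPM in skin, 47.5 and 44.1 in the papillomas and 103 in the tumour. Only the tumour stood out among the biopsies, by 1.16 ± 0.15 over papilloma (edgeR adjusted p = 0.00982). Sema4c, a plexin-B2 ligand, followed with 37.4 CPM in skin, 41.3 and 47.2 in the papillomas, 76.2 in the tumour, 12.4 in mSCC-20 and 36.2 in mSCC-38. It rose by 0.78 ± 0.15 in the last step (edgeR adjusted p = 0.0272), a call lost with total-count scaling (0.91, edgeR adjusted p = 0.0502).

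Sema6a and Sema6c were the transmembrane members that fell from skin to papilloma. Sema6a, a ligand of plexin-A2 and plexin-A4, had 45.9 CPM in skin, 5.81 and 13 in the papillomas, 4.37 in the tumour, 3.90 in mSCC-20 and 0.996 in mSCC-38. It fell by 2.28 ± 0.46 (edgeR adjusted p = 0.0280), and the papilloma with hair follicle RNA had the higher value of the pair. On log2(CPM + 0.5) the ratio to skin was -2.88 with papilloma 1 alone and -1.78 with papilloma 2 alone. Sema6c had 10.6 CPM in skin, 2.02 and 2.22 in the papillomas, 1.61 in the tumour, 0.292 in mSCC-20 and 0.483 in mSCC-38, with a log2 fold change from skin to papilloma of -2.31 ± 0.31 (edgeR adjusted p = 0.0132).

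Sema4g and Sema4a were lower in the tumour than in the papillomas. Sema4g had 49.1 CPM in skin, 12.7 and 26.4 in the papillomas, 1.52 in the tumour, 0.649 in mSCC-20 and 0.603 in mSCC-38. From papilloma to tumour its log2 fold change was -3.69 ± 0.55 (edgeR adjusted p = 0.0141), and the tumour lay 32.4-fold below skin (95% interval 25.2 to 42.1), the deepest fall of any member with at least 1 CPM in the higher of these libraries. From skin to papilloma the log2 fold change was -1.33 ± 0.42 (edgeR adjusted p = 0.0754). It passed with DESeq2 (adjusted p = 0.0334), and here too papilloma 2 was the higher of the papillomas. On log2(CPM + 0.5) the tumour stood at -2.71 against papilloma 1 alone and -3.74 against papilloma 2 alone. The part of hair follicle RNA in the difference between the papillomas was not tested. Sema4a had 97.8 CPM in skin, 139.8 and 134 in the papillomas, 67.4 in the tumour, 24.3 in mSCC-20 and 7.84 in mSCC-38. It fell by 1.02 ± 0.18 from papilloma to tumour (edgeR adjusted p = 0.0215). Sema7a, a GPI-anchored ligand of plexin-C1 and integrins, had 33.4 CPM in skin, 46.3 and 35.2 in the papillomas, 38 in the tumour, 0.455 in mSCC-20 and 3.11 in mSCC-38, and passed in neither biopsy comparison (edgeR adjusted p = 0.338 and 0.748).

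Both neuropilins, co-receptors of class 3 semaphorins and of VEGF, fell from skin to papilloma, and Nrp2 rose from papilloma to tumour. Nrp2 had 112 CPM in skin, 59.3 and 63.9 in the papillomas, 191 in the tumour, 226 in mSCC-20 and 266 in mSCC-38. It fell by 0.86 ± 0.17 (edgeR adjusted p = 0.0278) and then rose by 1.63 ± 0.17 (edgeR adjusted p = 0.00617). Nrp1 had 77.0 CPM in skin, 50.5 and 47.1 in the papillomas and 57.6 in the tumour. Its log2 fold change to papilloma was -0.66 ± 0.15 (edgeR adjusted p = 0.0356), a call lost with DESeq2 (adjusted p = 0.0556). Nrp2 made up 51.4% of the summed neuropilin CPM per kb in skin, 46.1% and 49.7% in the papillomas, and 70.7% in the tumour.

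Among plexins, the signalling receptors of the semaphorins, Plxnb2, a receptor of Sema4c, had the highest level per length in every library, with 54.9 CPM per kb in skin, 89.9 and 82.6 in the papillomas, 108 in the tumour, 61.9 in mSCC-20 and 114 in mSCC-38. It did not pass in either biopsy comparison with edgeR (log2 fold change 0.65 ± 0.24, adjusted p = 0.106, from skin to papilloma), and passed there with DESeq2 (adjusted p = 0.00804). Of 9 plexins, 3 fell from skin to papilloma and none rose, and 2 fell from papilloma to tumour.

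Plxnb3 was at 2.98 CPM in skin and under 1 CPM elsewhere (edgeR adjusted p = 0.0277). Plxna3 had 74.2 CPM in skin, 30.7 and 44.6 in the papillomas and 30.5 in the tumour, a log2 fold change from skin to papilloma of -0.98 ± 0.24 (edgeR adjusted p = 0.0454). Plxnc1, the receptor of Sema7a, had 11.3 CPM in skin, 5.58 and 5.33 in the papillomas and 8.47 in the tumour (log2 fold change to papilloma -1.05 ± 0.25, edgeR adjusted p = 0.0425, and 0.0950 with DESeq2). It was nearly absent from the isolated cells, with 1 and 8 counts. Plxna2, the receptor of Sema6a, had 136 CPM in skin, 79.8 and 113 in the papillomas and 31.7 in the tumour. In the last step it fell by 1.61 ± 0.28 (edgeR adjusted p = 0.0203), and with total-count scaling the value was -1.49 (edgeR adjusted p = 0.0531).

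The Slits, large secreted ligands, each took a different course in the biopsies. Slit1 had 1.25 CPM in skin, 9.80 and 5.76 in the papillomas, 6.22 in the tumour, 1.07 in mSCC-20 and 1.36 in mSCC-38. It rose from skin to papilloma by 2.63 ± 0.48 (edgeR adjusted p = 0.0228). On log2(CPM + 0.5) the rise was 2.56 with papilloma 1 alone and 1.84, below 4-fold, with papilloma 2 alone. Slit3 had 47.8 CPM in skin, 18.1 and 19.6 in the papillomas and 22.2 in the tumour, a log2 fold change from skin to papilloma of -1.34 ± 0.15 (edgeR adjusted p = 0.00948). Slit2 had 9.50 CPM in skin, 9.28 and 7.63 in the papillomas and 36.8 in the tumour. Skin and papillomas lay close together, and the tumour rose over papilloma by 2.12 ± 0.21 (edgeR adjusted p = 0.00560). On log2(CPM + 0.5) this rise was 2.20 over papilloma 2 alone and 1.93, below 4-fold, over papilloma 1 alone.

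Of the summed Slit CPM per kb, Slit3 made up 87.1% in skin and 43.4% in the tumour, while Slit2 went from 10.8% to 45%. Robo1, their main receptor here by level, had 11.7 CPM per kb in skin, 9.23 and 10.9 in the papillomas, 10.9 in the tumour, 4.01 in mSCC-20 and 12.5 in mSCC-38. No biopsy comparison of Robo1 passed (edgeR adjusted p = 0.413 and 0.676). Robo2, its neighbour on chromosome 16, had 9.78 CPM in skin, 20 and 21.6 in the papillomas and 26.7 in the tumour, and rose to papilloma by 1.09 ± 0.19 (edgeR adjusted p = 0.0200). With total-count scaling this rise was 0.67 (edgeR adjusted p = 0.0970). Robo4, an endothelial Robo, had 10.7 CPM in skin, 8.49 and 8.55 in the papillomas and 10.9 in the tumour, and 1 and 0 counts in mSCC-20 and mSCC-38.

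The A ephrins, GPI-anchored ligands of EphA receptors, fell in 3 of 5 cases and rose in none from skin to papilloma. Their summed level was 162 CPM per kb in skin, 104 and 105 in the papillomas, 61.8 in the tumour, 44.5 in mSCC-20 and 42.4 in mSCC-38. Efna3 had 74.7 CPM in skin, 40 and 39.6 in the papillomas, 9.42 in the tumour, 5.94 in mSCC-20 and 1.63 in mSCC-38. The biopsy values descended from skin through both papillomas to the tumour. Efna3 fell by 0.91 ± 0.13 to papilloma (edgeR adjusted p = 0.0155) and by a further 2.08 ± 0.15 to tumour (edgeR adjusted p = 0.00337), and the tumour lay 7.92-fold below skin (95% interval 7.14 to 8.81).

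Efna3 lies between Efna1 and Efna4 on chromosome 3 (mm9 positions 89118873 to 89126801, with Efna1 at 89075652 to 89084873 and Efna4 at 89137315 to 89141950), and the log2 fold changes of these neighbours from papilloma to tumour were smaller. Efna4 had 30.5 CPM in skin, 14.8 and 16.2 in the papillomas, 18.4 in the tumour, 11.3 in mSCC-20 and 12.7 in mSCC-38, with a log2 fold change from skin to papilloma of -0.98 ± 0.17 (edgeR adjusted p = 0.0209) and of 0.25 ± 0.17 from papilloma to tumour (adjusted p = 0.351). Efna1, the main ligand of EphA2, had 92.4 CPM in skin, 74.8 and 71.9 in the papillomas, 52.2 in the tumour, 38.9 in mSCC-20 and 27.3 in mSCC-38. It passed in neither step (edgeR adjusted p = 0.167 and 0.0913), but was called lower in papilloma with total-count scaling (-0.75, edgeR adjusted p = 0.0389). Per length, Efna3 (61.2 CPM per kb) and Efna1 (56.5) were close in skin, and in the tumour Efna1 (31.9) was above Efna3 (7.72). Efna2 had 8.97 CPM in skin, 2.34 and 3.53 in the papillomas, 1.21 in the tumour, 0.357 in mSCC-20 and 0.845 in mSCC-38, with a log2 fold change from skin to papilloma of -1.60 ± 0.37 (edgeR adjusted p = 0.0392) that DESeq2 did not call (adjusted p = 0.0572).

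Of the B ephrins, transmembrane ligands that also signal backward into their own cell, Efnb2 had 188 CPM in skin, 92.2 and 111 in the papillomas, 115 in the tumour, 14.7 in mSCC-20 and 77.0 in mSCC-38. It fell by 0.89 ± 0.20 to papilloma (edgeR adjusted p = 0.0359). Efnb1, the highest B ephrin per length in papilloma 1, in the tumour and in both isolated cells, had 30 CPM per kb in skin, 25.3 and 23.6 in the papillomas, 35.6 in the tumour, 17.2 in mSCC-20 and 22.8 in mSCC-38, and did not pass (edgeR adjusted p = 0.244 and 0.0825).

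Among Eph receptors, Epha2 rose at both steps and the other EphA genes tested passed at neither. Epha2 (mm9 chr4:140857136-140885299, plus strand) had 65.5 CPM in skin, 225 and 228 in the papillomas, 608 in the tumour, 363 in mSCC-20 and 195 in mSCC-38. Skin was the lowest of the 6 libraries, and the papillomas differed little from each other. The gene rose by 1.79 ± 0.22 to papilloma (edgeR adjusted p = 0.0115) and by 1.42 ± 0.20 to tumour (edgeR adjusted p = 0.0117), and the tumour was 9.28-fold above skin (95% interval 8.95 to 9.63). Epha1, the receptor that led the EphA class in skin at 47.0 CPM per kb against 16.7 for Epha2, had 46.3 and 50.9 CPM per kb in the papillomas and 36.8 in the tumour (edgeR adjusted p = 0.858 and 0.190). Of the summed CPM per kb of all Eph receptors, Epha2 made up 9.71% in skin, 29.5% and 27.8% in the papillomas, 60.3% in the tumour, 72.1% in mSCC-20 and 40.6% in mSCC-38.

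**Figure D3:**
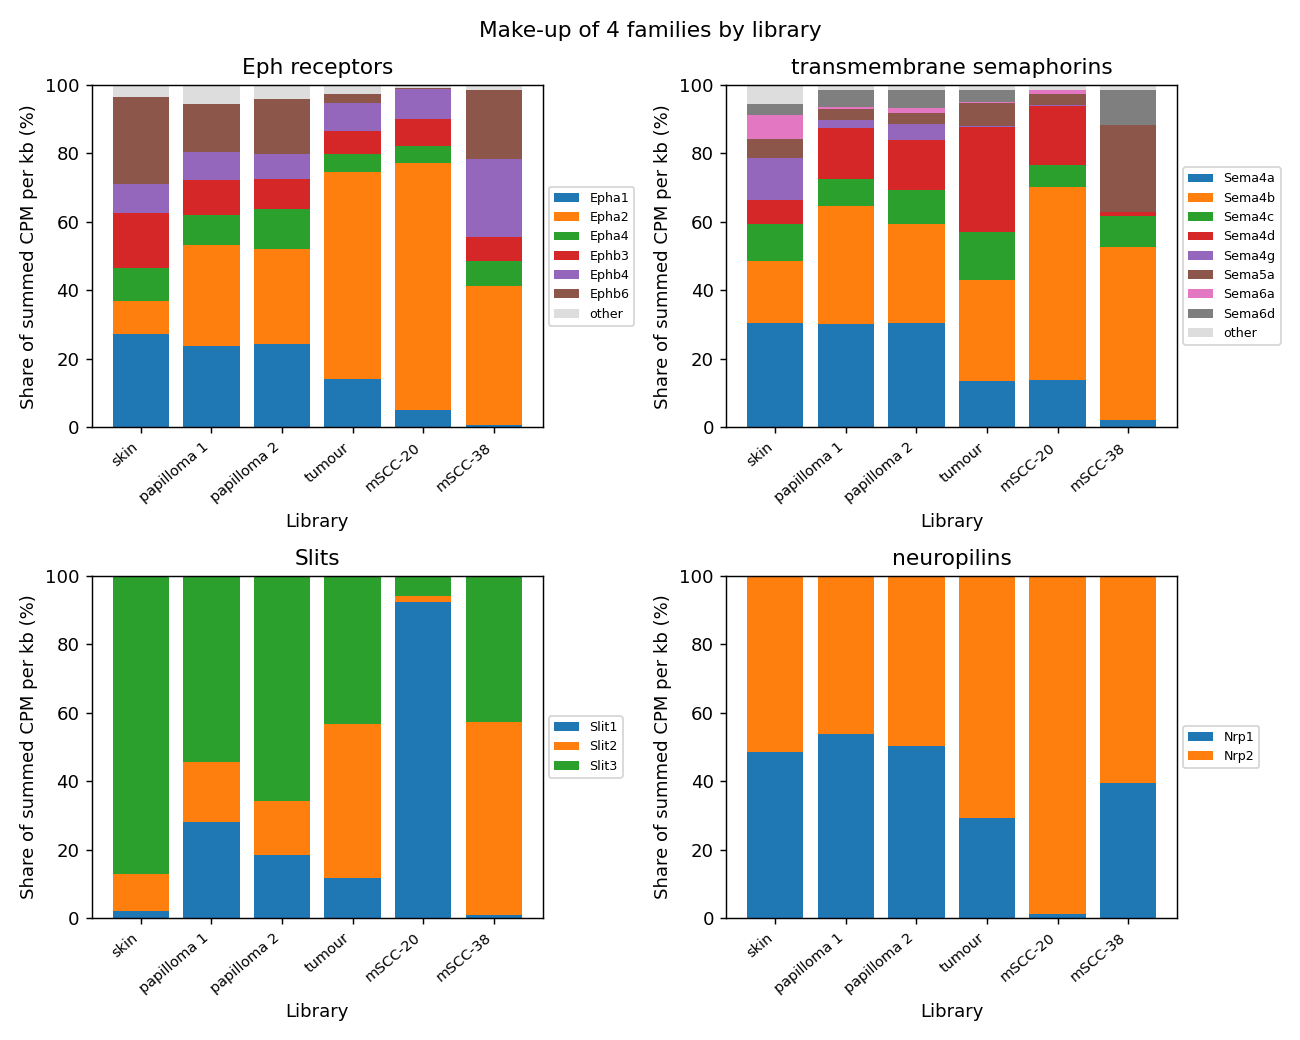
Share of the summed CPM per kb (y axis, percent) taken by each gene within the Eph receptors, the transmembrane semaphorins, the Slits and the neuropilins, 1 bar per library. The Epha2 part of the Eph bar grows from 9.71% in skin to 60.3% in the tumour, and the Slit bar of mSCC-20 stands for only 0.223 CPM per kb in all.

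The EphB receptors, which bind B ephrins, split. Ephb2 had 10.1 CPM in skin, 31.3 and 26.3 in the papillomas, 25.6 in the tumour, 6.33 in mSCC-20 and 6.28 in mSCC-38, and rose to papilloma by 1.51 ± 0.20 (edgeR adjusted p = 0.0128). Ephb1 had 16 CPM in skin, 16.2 and 12.4 in the papillomas and 2.78 in the tumour, and 1 and 0 counts in mSCC-20 and mSCC-38. It fell by 2.36 ± 0.30 from papilloma to tumour (edgeR adjusted p = 0.00961). Ephb6, a receptor without kinase activity, had 165 CPM in skin, 103 and 126 in the papillomas and 24.9 in the tumour, and fell by 2.20 ± 0.23 in the last step (edgeR adjusted p = 0.00627). The tumour was below all other biopsies for both genes. Ephb4, the receptor of ephrin-B2, took the first place of the class per length in the tumour (20.9 CPM per kb), in mSCC-20 (11.2) and in mSCC-38 (28.0), after 14.1 in skin and 15.8 and 14.8 in the papillomas (edgeR adjusted p = 0.604 and 0.103).

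Tumour and skin, with 1 library on each side, were compared by size alone and have no replicate check. At least 4-fold on log2(CPM + 0.5), with at least 1 CPM in the higher library, was reached upward by 2 of 54 members (Epha2 and Sema4d, background 5.13%) and downward by 11 (20.4% of members, background 9.97%). The 11 were Sema4g, Sema3d, Sema6a, Efna3, Efna2, Sema3b, Ephb6, Sema6c, Ephb1, Sema3g and Plxna2, from 32.4-fold (Sema4g) to 4.30-fold (Plxna2) lower. The median log2 ratio was -0.37 over the members and 0.01 over all 14728 genes measured. Total-count scaling moved these to -0.66 and -0.28.

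More members passed the size rule between the tumour-derived cells than between any biopsies. In mSCC-38 against mSCC-20, 14 of 46 members with at least 1 CPM were at least 4-fold higher (30.4%, background 7.89%) and 3 were at least 4-fold lower (6.52%, background 4.38%). The median log2 ratio was 0.78 over the 46 members and -0.13 over all 12297 genes measured, and 31 of the 46 members lay above 0. With 1 library per cell type there is no test. The higher members comprised 7 ligands and 7 receptors, with 2 of 3 Slits, 3 of 7 measured plexins and 1 of 2 neuropilins among them.

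Slit2 had 1 count (0.0325 CPM) in mSCC-20 and 4799 counts (145 CPM) in mSCC-38, a ratio of 4460 (95% interval 800.1 to 176187). Slit3 had 2 counts (0.0649 CPM) and 2265 counts (68.3 CPM), a ratio of 1052 (95% interval 291 to 8696). In mSCC-38 both genes were above every biopsy, whose highest values were 36.8 CPM for Slit2 (tumour) and 47.8 CPM for Slit3 (skin). The mSCC-20 values were 0.0224% and 0.0950% of those in mSCC-38. Hair root sheath genes, which isolated cells should lack, were counted in both cell libraries at 0.0358% to 0.0899% of their skin level, so whether these 1 or 2 counts came from mSCC-20 itself was not tested. Slit1 had 1.07 and 1.36 CPM.

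Robo2 had 6.30 CPM in mSCC-20 and 53.6 CPM in mSCC-38, 8.52-fold higher (95% interval 7.34 to 9.93), and Robo1 was 3.13-fold higher (2.91 to 3.37), short of the 4-fold line. Robo3, a divergent Robo that guides commissural axons, went the other way, with 6.72 CPM in mSCC-20 and 1.12 CPM in mSCC-38, 6.02-fold lower (95% interval 4.23 to 8.79). In the biopsies Robo3 reached at most 0.380 CPM (tumour). Ligands and receptors of the Slit pathway other than Robo3, Robo4 and Slit1 were thus at least 3-fold higher in mSCC-38.

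Of the semaphorins, 2 of 6 measured class 3 members (Sema3a and Sema3b) and 2 of 9 measured transmembrane members (Sema5a and Sema6d) were at least 4-fold higher in mSCC-38, and 1 transmembrane member (Sema4d) was as much lower. The median log2 ratio was -0.47 over the class 3 members and 0.88 over the transmembrane members. Sema6d had 1 count (0.0325 CPM) in mSCC-20 and 70.4 CPM in mSCC-38, a ratio of 2169 (95% interval 389 to 85707). Sema3a had 1 count in mSCC-20 and 18.4 CPM in mSCC-38 (ratio 566, 95% interval 101 to 22390), above all 4 biopsies. Sema3b was 28.2-fold higher (15.6 to 57.1), and Sema5a, with 18.1 and 290 CPM, was 16-fold higher (14.7 to 17.5). Sema4d was 7.65-fold lower in mSCC-38 (95% interval 6.51 to 9.04), so that its part of the summed transmembrane semaphorin CPM per kb went from 17.4% in mSCC-20 to 1.10%. Sema4a was 3.10-fold lower (2.68 to 3.58) and Sema3e 2.17-fold lower (1.91 to 2.47), both short of the 4-fold line. Sema3g had 33 counts in mSCC-20 and 2 in mSCC-38, 17.8-fold lower (95% interval 4.54 to 153), and did not reach 4-fold once 0.5 CPM was added to both sides.

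On the receptor side, Nrp1 had 2.14 CPM in mSCC-20 and 126 CPM in mSCC-38, 59.0-fold higher (95% interval 46.3 to 76.4), while Nrp2 differed by 1.17-fold (1.14 to 1.21). Nrp2 therefore made up 98.7% of the summed neuropilin CPM per kb in mSCC-20 and 60.5% in mSCC-38. Plxna3 had 16.3 and 72.4 CPM, 4.45-fold higher (4.04 to 4.91), and Plxna2 had 18.9 and 80.6 CPM, 4.26-fold higher (3.90 to 4.67). Plxna4 had no count in mSCC-20 and 4.13 CPM in mSCC-38, 42.4-fold higher when 3 counts are taken for the count of 0 (95% interval from 34.1 upward). By contrast Plxna1, Plxnb1 and Plxnb2 were within 2-fold, at ratios of 1.29 (1.26 to 1.33), 1.02 (0.950 to 1.10) and 1.84 (1.81 to 1.89).

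In the ephrin system, Ephb6 had 8 counts (0.260 CPM) in mSCC-20 and 92.7 CPM in mSCC-38, a ratio of 357 (95% interval 181 to 827). Efnb2 was 5.23-fold higher (4.73 to 5.80), and its receptor gene Ephb4 was 2.50-fold higher (2.35 to 2.65), below the 4-fold line. Epha3 had no count in mSCC-20 and 1.87 CPM in mSCC-38, 19.2-fold higher by the same 3-count floor (95% interval from 15.2 upward). Epha1 was 7.29-fold lower in mSCC-38 (95% interval 5.89 to 9.11), with 21.6 and 2.96 CPM, and Epha2 was 1.86-fold lower (1.80 to 1.92). The first place among EphA genes per length nevertheless belonged to Epha2 in both, at 92.8 and 49.9 CPM per kb.

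**Figure D4:**
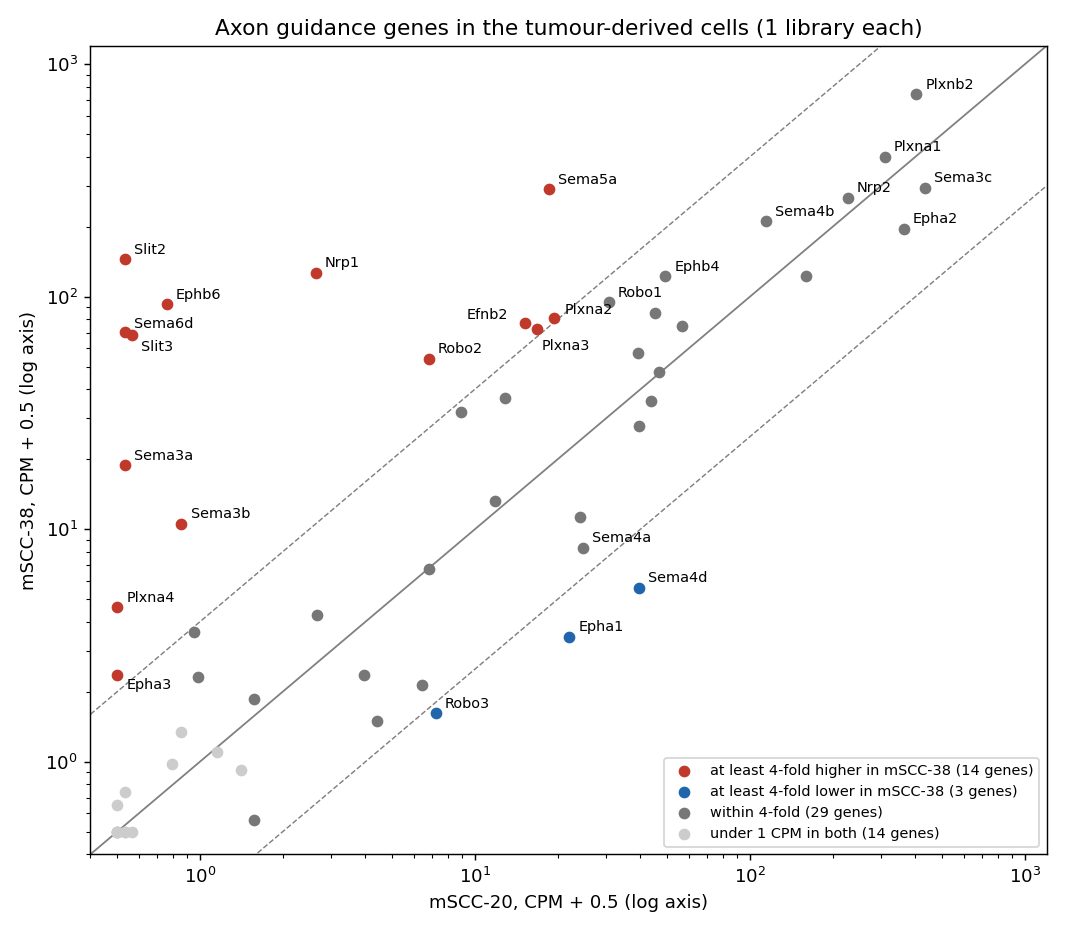
Each of the 60 genes by its level in mSCC-20 (x axis) and mSCC-38 (y axis), both CPM + 0.5 on log axes, with lines at equal levels and at 4-fold either way. Slit2, Slit3, Sema6d, Ephb6 and Sema3a sit at the left edge with under 1 CPM in mSCC-20, and 3 genes lie below the lower line.

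Several marker lists also differed between mSCC-20 and mSCC-38. Of 8 mesenchymal markers, 7 were at least 4-fold higher in mSCC-38, where the list summed to 6081 CPM against 219 in mSCC-20 (Vim 3990 against 1.62 CPM). Of 9 fibroblast markers, 8 reached 1 CPM and 6 of these were at least 4-fold higher, with sums of 13.6 CPM in mSCC-20 and 450.5 in mSCC-38, against 3615 to 5373 in the biopsies. In mSCC-38 Fbn1, a microfibril gene, had 189 CPM (121 to 275 in the biopsies), Col1a1 122.6, Col6a1 49.9, Pdgfra 33.4, Col3a1 28.9 and Pdgfrb 21.1, while Dcn, Col1a2 and Lum had 3.14, 2.78 and 0.181. Keratinocyte markers summed to 18800 CPM in mSCC-20 and 12207 CPM in mSCC-38. Of these 10 markers, 1 was at least 4-fold higher in mSCC-38 (Itgb4, 213 and 2025 CPM). Lower by as much were 2 of them, Cdh1 (195 and 1.63 CPM) and Dsg3 (223 and 14.8 CPM). Within 4-fold, Krt14 (6606 and 3054 CPM), Krt5 and Sfn were lower, and Perp (500 and 1064 CPM), Itga6, Trp63 and Dsp were higher. Neuron markers summed to 8.64 and 274 CPM, of which Stmn2 gave 0.227 and 244 and Tubb3 8.34 and 25.7. In mSCC-38 Uchl1 had 1.60 CPM, Snap25, Nefl, Nefm and Prph had 0.121 to 0.724, and Nefh and Elavl4 were at 0. Of the 9 endothelial markers Cldn5 was at 0 in both, and the sums were 30 and 16.8 CPM. Of 10 Schwann cell markers Sox10, Cdh19, S100b and Pmp2 were at 0 in both, with sums of 265 and 20.4 CPM. The part of these marker differences in the members' values was not tested.

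The stretch of 250 bases before the annotated start is shown for 4 of the genes that had 8 counts or fewer in mSCC-20 and were at least 4-fold higher in mSCC-38, each with 1 RefSeq window. Sema6d, with 2 windows of 9 and 6 CG dinucleotides, and Epha3, with 1 window of 16, are not printed. The sequences are from RefSeq on GRCm38.p6, all on the plus strand, while the counts were assigned on mm9. Capitals mark CG dinucleotides.
Slit2, chr5:47982905-47983154: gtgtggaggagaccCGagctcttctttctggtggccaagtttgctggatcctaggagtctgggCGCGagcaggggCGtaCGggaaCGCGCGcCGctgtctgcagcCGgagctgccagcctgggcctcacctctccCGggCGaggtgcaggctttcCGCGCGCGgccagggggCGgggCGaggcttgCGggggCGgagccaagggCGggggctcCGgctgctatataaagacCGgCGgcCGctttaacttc
Slit3, chr11:35121206-35121455: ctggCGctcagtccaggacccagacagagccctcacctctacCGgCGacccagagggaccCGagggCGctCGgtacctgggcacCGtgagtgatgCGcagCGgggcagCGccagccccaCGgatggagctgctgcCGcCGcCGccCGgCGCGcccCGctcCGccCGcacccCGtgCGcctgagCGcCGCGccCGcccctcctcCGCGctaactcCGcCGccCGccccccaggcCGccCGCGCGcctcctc
Ephb6, chr6:41605261-41605510: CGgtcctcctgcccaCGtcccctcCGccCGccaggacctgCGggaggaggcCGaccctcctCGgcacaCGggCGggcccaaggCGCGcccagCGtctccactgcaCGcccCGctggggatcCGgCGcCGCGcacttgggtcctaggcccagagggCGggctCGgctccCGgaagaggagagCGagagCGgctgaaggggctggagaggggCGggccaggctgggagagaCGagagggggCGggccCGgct
Sema3a, chr5:13396534-13396783: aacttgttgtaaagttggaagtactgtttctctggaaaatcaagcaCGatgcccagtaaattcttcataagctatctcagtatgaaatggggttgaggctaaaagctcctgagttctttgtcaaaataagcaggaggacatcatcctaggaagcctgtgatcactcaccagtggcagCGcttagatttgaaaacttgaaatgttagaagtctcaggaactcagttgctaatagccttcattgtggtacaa
Slit2, Slit3 and Ephb6 have CG-rich starts, with 25, 35 and 27 CG dinucleotides in the 250 bases. Sema3a has 2. GC boxes, searched as GGGCGG on both strands and each holding a CG, numbered 3, 6, 5 and 0. Thus the near-absent members of mSCC-20 included genes with dense CG starts and, of the 4 printed, Sema3a alone with a sparse one. RefSeq windows were found for 53 of the 60 members. Over their 69 windows the median was 15 CG dinucleotides and 71.0% held GGGCGG, and over all 32851 windows it was 6 and 32.7%. A match describes the letters and is not a measured site.

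Other genes of the same pathways, from lists chosen with the results of these data already known, are given as counts. Over all genes tested, 12% rose and 14.3% fell to papilloma, and 12.1% rose and 10.6% fell to tumour. Between the isolated cells, 7.89% of all genes measured were at least 4-fold higher in mSCC-38 and 4.38% were as much lower. Of the netrin, RGM and draxin ligands and receptors, 15 were tested in the biopsies: 7 fell and none rose from skin to papilloma, and 2 rose and 2 fell from papilloma to tumour. In mSCC-38, 4 of the 6 measured were at least 4-fold higher than in mSCC-20, with the largest ratios for Ntn4 (0.195 and 18.6 CPM), Ntn1 (0.0325 and 10.5 CPM) and the netrin receptor gene Unc5b (9.25 and 169 CPM). The list's median log2 ratio was 3.10. Of 29 tested plexin and neuropilin co-receptors and effectors, 5 rose and 8 fell to papilloma, and 7 rose and 4 fell to tumour. In mSCC-38 against mSCC-20, 6 of the 24 measured on this list were at least 4-fold higher and 2 were as much lower. Dpysl3, a collapsin response mediator, had 13.1 CPM in skin, 5.95 and 4.87 in the papillomas, 43.5 in the tumour, 1.23 in mSCC-20 and 119 in mSCC-38, whereas its relative Dpysl5 had 25.9 CPM in mSCC-20 and 0.0603 in mSCC-38.

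Of 21 Slit and Robo effectors, 5 rose and 3 fell to papilloma, and 5 rose and 1 fell to tumour. Only Srgap1, a Robo-binding GTPase activator (0.162 and 9.11 CPM), and the heparan sulphate proteoglycan gene Gpc1 (67.5 and 325 CPM) were at least 4-fold higher in mSCC-38, and none was as much lower. Of 25 Eph and ephrin effectors, 4 rose and 2 fell to papilloma, and 3 rose and 2 fell to tumour. In mSCC-38 against mSCC-20, 5 of 23 measured were higher and 1 lower by the 4-fold rule. Grip1, a scaffold that binds B ephrins, had 2.57 CPM in skin, 28.1 and 28.5 in the papillomas, 21.7 in the tumour, no count in mSCC-20 and 11.6 CPM in mSCC-38. The median log2 ratios of the plexin, Slit and Eph effector lists between the isolated cells were -0.15, 0.26 and 0.10. These were closer to the -0.13 of all genes than the members' 0.78.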

How the data were processed

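Per the file headers, the authors deposited 1 table of raw counts per gene model in 6 libraries, with RPKM values beside them, and the submitters' processing notes name mm9 as the genome build. The deposited RPKM values were used only to check the counts. The sources used here name no aligner or counter and do not say whether strand was used. Per the labels' protocols, libraries came from total RNA and a NEB kit meant for small RNA on SOLiD. CPM used TMM factors over all 6 libraries (0.848 to 1.20). The 4 biopsies were fitted together in edgeR 4.0.16 (limma 3.58.1, R 4.3.3; filterByExpr, quasi-likelihood test, Benjamini-Hochberg over 16302 genes, threshold 0.05). The 2 papillomas give the 1 residual degree of freedom, so skin and tumour are taken to vary as they do. The test also draws on the spread across genes, with 3.84 prior degrees of freedom. The SE was worked back from the test, as the size of the log2 fold change over the square root of F. The edgeR step was tested on simulated data. Single-library pairs were compared by size: at least 4-fold on log2(CPM + 0.5) and at least 1 CPM in the higher library. Members and lists were chosen with earlier results of these data known. Every library is given for members called by edgeR or past the size rule with at least 5 CPM, and for the highest member per length of each class; of the other lists, counts and up to 3 genes with the largest ratio. DESeq2 1.42.0, RLE and total-count scaling, other filters, pseudocounts and folds were alternatives. Gene models that overlap a member held at most 21 counts in a library.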

Additional observations from a re-analysis of the deposited data

How the results depend on the processing

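The 4 counts of members called by edgeR stayed within 1.5 times of the main count under RLE factors, total-count scaling, no filter, DESeq2 and a fit of all 6 libraries: 6 to 8 for higher and 12 to 20 for lower in papilloma against skin, and 5 to 6 and 6 to 10 in tumour against papilloma. Among the 42 members recomputed, no called fold change and no ratio past the 4-fold rule changed sign. Values near 0 did for Epha1, Ephb1, Ephb4, Sema4c and Sema7a (papilloma against skin), Sema3a, Sema4b, Sema7a and Slit1 (tumour against papilloma), Ephb2 and Sema4g (mSCC-38 against mSCC-20), and Efnb1, Sema3f and Sema7a (tumour against skin, -0.05, -0.03 and -0.10 with total-count scaling, from 0.24, 0.26 and 0.18). With total-count scaling, Plxna2 (-1.49), Plxnb1 (-0.81), Sema3d (-0.57) and Sema4c (0.91) were no longer called in tumour against papilloma (edgeR adjusted p = 0.0531, 0.0567, 0.123 and 0.0502), while Efna1 (-0.75), Efnb1 (-0.72) and Sema5a (-0.71) became called in papilloma against skin (0.0389, 0.0442 and 0.0391). The 4-fold counts moved more. With a 2-fold rule they were 7 up and 10 down (papilloma against skin), 5 and 9 (tumour against papilloma), 10 and 18 (tumour against skin), and 8 down in mSCC-38 against mSCC-20. For papilloma against skin, the 1 member upward became 0 under total-count scaling, a pseudocount of 1 CPM and a minimum of 10 CPM, and 0 to 1 without either papilloma, and the 4 downward became 2 with a pseudocount of 1 CPM. For tumour against papilloma the 1 upward was 0 to 1 without either papilloma (0 without papilloma 2). In mSCC-38 against mSCC-20 the 14 members upward became 12 to 15 in the alternatives that kept the 4-fold line, and 20 at 2-fold. The cause was not tested, other than that a lower fold line admits more genes. For these alternative settings the share of all genes was not worked out, so the counts show only how they depend on the setting. No paired analysis was possible because only papilloma has more than 1 library. Without a papilloma no residual degree of freedom is left for the edgeR test. Precision is limited by 1 library in each of skin, tumour, mSCC-20 and mSCC-38.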
